A study of Mus musculus with 12 samples.

Results

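RNA recovered with an antibody against Ythdf1 was compared directly with RNA recovered with an antibody against Ythdf2 in mouse cortex at embryonic day 12.5 (E12.5). The comparison used 4 of the study's 12 libraries, 2 Ythdf1 immunoprecipitates (IPs) and 2 Ythdf2 IPs, with no input RNA in the fit. Genes were members when they had at least 10 counts in 2 or more of the 4 libraries and did not lie on ribosomal RNA (rRNA) loci, which left 16347 of the 52550 genes in the count table. All groups came from wild-type C57BL/6 mice, so that no group carried a mutant allele, a transgene or a treatment. The same antibodies were used on retina at postnatal day 0 (P0), 2 libraries each, and those 4 IPs are shown beside the cortex values. Tissue and age differ together there and cannot be told apart. A library made with an unrelated antibody is not analysed here, so a difference between the IPs is a difference in recovery, which includes whatever each antibody and its beads hold nonspecifically. The labels number the replicates but do not say whether they came from separate litters, and every p-value measures only the spread between these libraries, which may be technical.

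Ythdf1 and Ythdf2 are cytoplasmic proteins whose YTH domain binds N6-methyladenosine (m6A), a methyl mark that the Mettl3 and Mettl14 complex places on mRNA. The mark lies most often within short sequences such as GGACU, near stop codons and in 3′ untranslated regions (UTRs). Ythdf2 is best known for bringing the Ccr4-Not deadenylase to marked mRNAs, which are then degraded, and Ythdf1 has been linked to their translation. In the embryonic cortex m6A and Ythdf2 are known for their part in the timing of neural progenitor division and neuron production. RNA immunoprecipitation followed by sequencing (RIP-seq) captures the protein with its bound RNA but does not show where on the RNA the protein sat.

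The antibodies recovered largely the same transcripts in the cortex, with a small set of mostly short and abundant RNAs higher in the Ythdf1 IP. Igf2, mitochondrially encoded mRNAs, Gapdh, Ubb, replication histones and ribosomal protein genes led that set. edgeR's quasi-likelihood test called 130 genes higher in the Ythdf1 IP (0.795% of genes tested) and 14 higher in the Ythdf2 IP (0.0856%) at a Benjamini-Hochberg adjusted p under 0.05, 144 in all (0.881%). Of the 13198 protein-coding genes tested, 96 (0.727%) and 9 (0.0682%) were called. At an unadjusted p under 0.05 there were 1172 (7.17%) and 632 (3.87%), the shares to set beside the list counts below. In all 144 called genes both libraries of one antibody lay above both of the other, which held for 3472 genes (21.2%) toward Ythdf1 and 3617 (22.1%) toward Ythdf2 over all genes kept. The smallest log2 fold change among the 130 was 1.47.

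Both the count of calls and the genes called depend on which libraries are fitted and on the scaling. A similar count in another fit need not hold the same genes. Without Ythdf1 IP replicate 2 there were 66 genes higher in the Ythdf1 IP and 36 higher in the Ythdf2 IP, without Ythdf1 IP replicate 1 there were 669 and 354, without Ythdf2 IP replicate 1 there were 208 and 43, and without Ythdf2 IP replicate 2 there were 126 and 20. Each of these fits leaves 1 antibody with a single library, which is assumed to vary like the pair of the other antibody, so a call kept there is no sign of stability. All 144 called genes kept their sign in each of them. Since their libraries did not overlap between antibodies, leaving 1 out could hardly change a sign, so this is no support either. Libraries were scaled by edgeR's trimmed mean of M values (TMM). With totals over the kept genes in place of TMM, the median log2 fold change of all genes went from -0.04 to -0.43, and the calls were 16 higher in the Ythdf1 IP and 14 higher in the Ythdf2 IP.

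The libraries themselves differed in depth and make-up. Totals ran from 23032707 counts (Ythdf1 IP replicate 2) to 33467121 (Ythdf2 IP replicate 2), of which genes on rRNA loci took 78.2% and 85.8% in the Ythdf1 IPs against 74.3% and 58.5% in the Ythdf2 IPs. The kept genes held 3265844 to 13804886 counts, so that 3 counts stood for 0.185 to 1.08 normalised CPM, which are TMM-scaled counts per 1000000 kept counts. The 22 kept U1, U3, 7SK and related small RNAs summed to 138030 and 193300 normalised CPM in the Ythdf1 IPs against 49479 and 9995 in the Ythdf2 IPs. The part of these differences in the results was not tested. The Ythdf1 replicates correlated at a Spearman rho of 0.941 over genes and the Ythdf2 replicates at 0.956. With the Ythdf2 IPs, Ythdf1 IP replicate 1 correlated at 0.954 and 0.953, and Ythdf1 IP replicate 2 at 0.917 and 0.907. The median gene differed by 0.51 on the log2 scale between the Ythdf1 replicates and 0.41 between the Ythdf2 replicates. Between antibodies it differed by 0.41 and 0.43 for Ythdf1 IP replicate 1, and by 0.61 and 0.65 for replicate 2. By both measures Ythdf1 IP replicate 1 was closer to the Ythdf2 IPs than to its own replicate. The distance between antibodies therefore lay mostly with Ythdf1 IP replicate 2. In the retina the same measure was 0.23 and 0.28 within antibodies and 0.61 to 0.63 between them.

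The labelled tissue carried its own markers. All 8 radial glia markers (such as Sox2, Pax6 and Nes) and all 6 markers of early cortical neurons (such as Tbr1 and Tubb3) were kept, with summed levels of 1785 and 1999 normalised CPM in the Ythdf1 IPs against 1722 and 2608 in the Ythdf2 IPs for the first, and 1711 and 1398 against 1525 and 1412 for the second. The 6 retina markers summed to 0.952 to 1.84 normalised CPM, and 1 of them was kept. Markers of red blood cells and of the meninges moved with the antibody. The 5 erythroid markers summed to 1327 and 3026 normalised CPM in the Ythdf1 IPs against 765 and 702 in the Ythdf2 IPs, and the 5 meningeal markers to 638 and 680 against 252 and 432. In both marker lists all 5 genes had both Ythdf1 IP libraries above both Ythdf2 IP libraries, against 21.2% of all genes kept. Of the 10 marker genes in these lists 1 was called, the meningeal marker Dcn. In bulk IPs compared without input, fewer cells of a type, less RNA per cell and lower recovery by an antibody cannot be told apart.

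**Figure D1:**
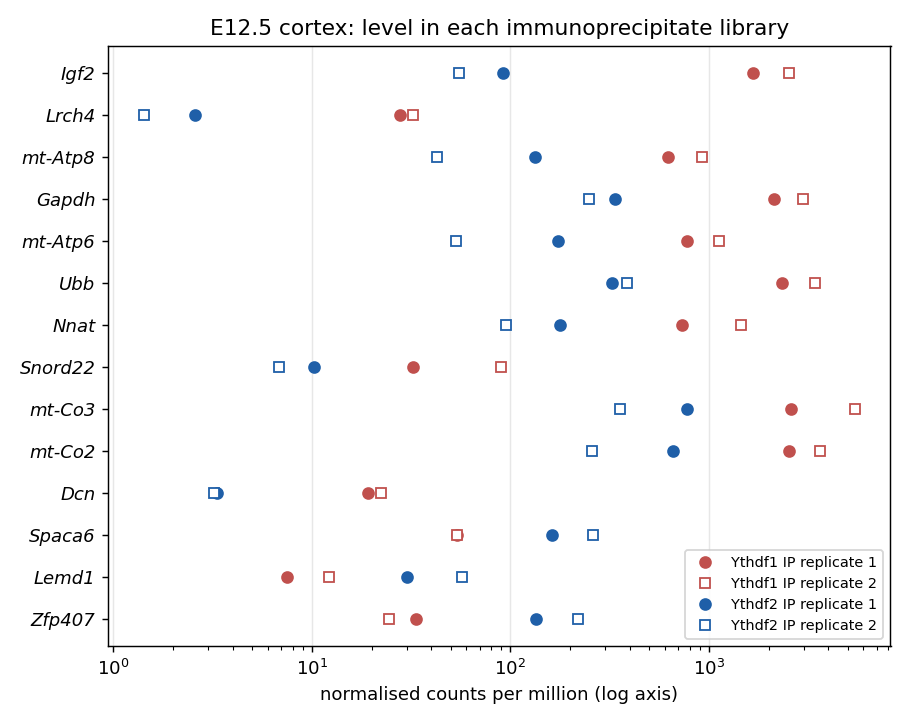
Normalised CPM on a log axis in each of the 4 cortex IP libraries, for 14 named genes called by edgeR, with red for the Ythdf1 IP, blue for the Ythdf2 IP, filled circles for replicate 1 and open squares for replicate 2. The red and blue points of each gene do not overlap, and Igf2 shows the widest gap, from 1668 and 2545 CPM to 92.0 and 54.8 CPM.

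Igf2 encodes insulin-like growth factor 2, a fetal growth factor expressed from the paternal allele (chromosome 7, 142650766 to 142666816, minus strand, GRCm38). It stood at 1668 and 2545 normalised CPM in the Ythdf1 IPs against 92.0 and 54.8 in the Ythdf2 IPs, so that the groups were far apart and replicates lay close together by comparison. The log2 fold change was 4.84 (SE 0.56, edgeR adjusted p 0.000233). The opposite-strand transcript Igf2os overlaps Igf2 in position and held 4 and 20 against 10 and 63 counts. In the retina the order was the other way, with 32.4 and 37.6 normalised CPM in the Ythdf1 IPs against 91.7 and 87.2 in the Ythdf2 IPs (log2 fold change -1.35, adjusted p 0.000152). The tissue difference, tested as an interaction over the 8 IPs, was -6.12 (SE 0.47, edgeR adjusted p 0.00017).

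The chosen Igf2 transcript is 4722 bases long and holds GGACT, the DNA letters of the commonest m6A context, at 2 places on its sense strand, both in the 3′ UTR. They are shown because Igf2 had the largest called difference toward Ythdf1, with the motif in capitals and its position counted from the first base of the transcript, next to the first of 4 coding matches in Dcn, a called gene that holds more of them per kilobase. The sequences are from the GENCODE M21 transcripts.
Igf2 position 4001: acggtgcctaGGACTgcggcgggga
Igf2 position 4127: ccaggtgacaGGACTggcaccaccc
Dcn position 505: agaacctgaaGGACTtgcatacctt
The motif was common throughout: 92.2% of the 13198 kept protein-coding transcripts held at least 1 match, with a median of 1.05 per kilobase, and 6.32% of 60-base coding windows held it. Among the 96 protein-coding genes called higher in the Ythdf1 IP, 60.4% held a match, with a median of 0.889 per kilobase. These 96 were shorter than the rest, and among transcripts under 1000 bases a match was found in 58.4% of the 724 kept and in 46.3% of the 54 called. No match lay in the chosen transcripts of Nnat, Gapdh, Ubb, Lemd1 or Spaca6. Over all kept protein-coding genes the log2 fold change hardly moved with matches per kilobase (Spearman -0.03), which is a description across genes that share these 4 libraries.

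The other imprinted gene called was Nnat, which encodes neuronatin, a small membrane protein of the developing brain. It was at 734 and 1451 normalised CPM in the Ythdf1 IPs against 179 and 94.7 in the Ythdf2 IPs (log2 fold change 2.998, SE 0.50, edgeR adjusted p 0.00745). Nnat lies within an intron of Blcap. In the retina it stood at 239 and 348 against 454 and 415 (log2 fold change -0.57, adjusted p 0.0253), and the tissue difference was -3.48 (adjusted p 0.00256). Of the 21 imprinted genes kept, these 2 were called higher in the Ythdf1 IP and 0 higher in the Ythdf2 IP, with a list median of 0.16 beside -0.04 for all genes. H19, the noncoding RNA next to Igf2, looked up for that reason, had 30.8 and 128 against 27.5 and 24.2 normalised CPM and was not called (adjusted p 0.33).

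Gapdh, a glycolytic enzyme, was at 2134 and 2994 normalised CPM in the Ythdf1 IPs against 338 and 248 in the Ythdf2 IPs (log2 fold change 3.13, SE 0.52, edgeR adjusted p 0.00679). Its difference had the same sign in the retina, 826 and 767 against 292 and 328, but was smaller there (tissue difference -1.69, adjusted p 0.0191). Gapdh was the only one of the 18 kept glycolysis entries that passed the test, and the list median was 0.52 (4 passed by DESeq2's Wald test and 4 without Ythdf1 IP replicate 1). Aldoa came next by p with 211 and 267 against 91.7 and 76.7 normalised CPM (adjusted p 0.05002).

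Part of the call list is the same sequence counted at more than 1 address. Of the 130 genes higher in the Ythdf1 IP, 23 were pseudogenes or unnamed models with a transcript at least 95% identical over at least 150 bases to another gene's. Processed copies of Gapdh made up 10 of these, each 99.8% to 100% identical to it. A coding stretch of 60 bases, from position 404 of the Gapdh coding sequence, is shown with an identical copy and a copy with 1 mismatch in capitals (T60A, counted from the first base shown, Gapdh base first), because a read within it cannot be placed by sequence or is placed by a single base.
Gapdh: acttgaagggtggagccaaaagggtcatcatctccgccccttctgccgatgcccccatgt
Gm10359: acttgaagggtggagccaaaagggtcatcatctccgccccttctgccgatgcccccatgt
Gm5559: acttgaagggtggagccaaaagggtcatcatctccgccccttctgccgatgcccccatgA
Gm10359 (chromosome 5, 105862701 to 105863702) had a log2 fold change of 3.10 and Gm5559 (chromosome 5, 95861714 to 95862715) 3.39, near the 3.13 of Gapdh. Copies of mt-Atp6, mt-Co2 and mt-Co3 on chromosome 1, of Ubb, Rpl37a, Tpt1 and Hist3h2ba were called beside the genes they match. How the authors' counting divided reads among such copies is not given in the sources used here, so these calls are not separate findings.

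Ubb, a polyubiquitin gene, was higher in the Ythdf1 IP. It was at 2337 and 3425 normalised CPM against 325 and 385 (log2 fold change 3.02, SE 0.53, edgeR adjusted p 0.0092), and without Ythdf2 IP replicate 1 its adjusted p was 0.0517. In the retina it was also higher with Ythdf1, 3397 and 3284 against 852 and 852.

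Cytosolic ribosomal protein genes lay on the Ythdf1 side throughout. All 81 kept genes had a log2 fold change above 0, with a median of 1.17, 11 were called higher in the Ythdf1 IP, and 0 were called higher in the Ythdf2 IP (70 and 0 at an unadjusted p under 0.05). DESeq2's Wald test called 35 and 0. The count was 3 without Ythdf1 IP replicate 2, 2 without Ythdf2 IP replicate 2, 17 without Ythdf2 IP replicate 1, 61 without Ythdf1 IP replicate 1, and 1 with totals as the scaling. Their summed level was 15718 and 25706 normalised CPM in the Ythdf1 IPs against 8833 and 9450 in the Ythdf2 IPs, so that replicate 2 of Ythdf1 stood above the other 3 libraries. Rps21, of the small subunit and named after its values were seen, was at 92.1 and 209 against 36.9 and 27.0 (edgeR adjusted p 0.013; 0.0698 without Ythdf1 IP replicate 2). Relative to all genes the list median was between 0.81 and 1.58 with any single library left out. A change of scaling shifts all genes nearly alike, so this measure cannot show its effect.

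The retina did not show this group difference. There the same 81 genes had a median of 0.01, with 14 called higher in the Ythdf1 IP and 18 higher in the Ythdf2 IP, and the tissue difference was called for 30 genes, each lower in the retina. Rps7, named after its values were seen, was at 222 and 388 against 104 and 65.2 normalised CPM in the cortex (edgeR adjusted p 0.0338; 0.126 without Ythdf1 IP replicate 2 and 0.277 without Ythdf2 IP replicate 2) but at 103 and 97.8 against 321 and 412 in the retina.

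**Figure D2:**
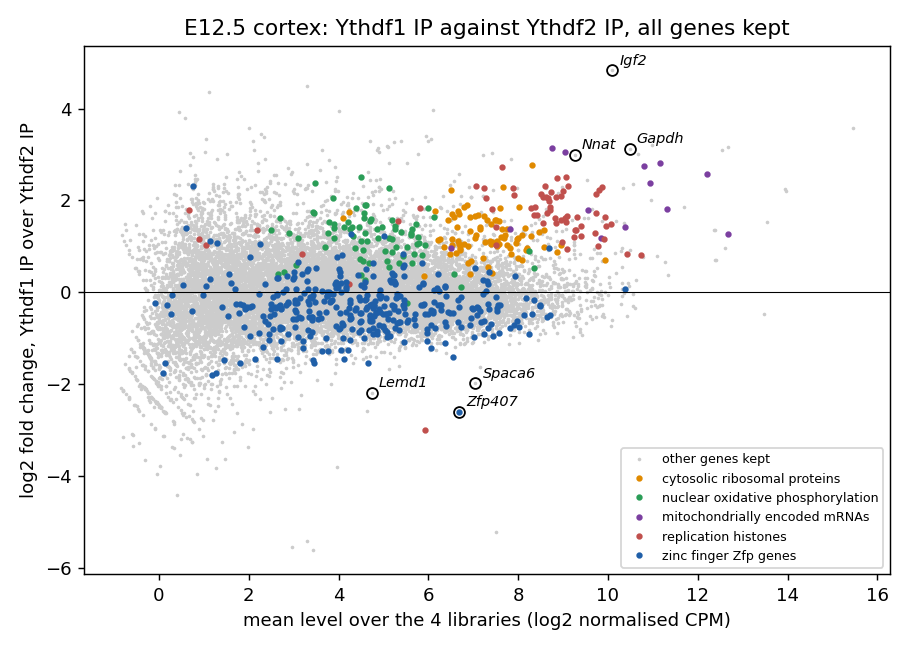
Log2 fold change of the Ythdf1 IP over the Ythdf2 IP in the cortex against the mean level over the 4 libraries (log2 normalised CPM), 1 point per gene, for the 16265 kept genes with a count in both groups. Ribosomal protein, oxidative phosphorylation, mitochondrial and histone genes lie mostly above 0, and Zfp genes mostly below it.

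Oxidative phosphorylation, the work of the respiratory complexes and ATP synthase, draws on genes of both the nucleus and mitochondria, and a minority of each passed the test. Of the 13 mRNAs encoded in mitochondrial DNA 4 were called higher in the Ythdf1 IP and 0 higher in the Ythdf2 IP, with a median of 1.82, and all 13 lay above 0 (10 and 0 at an unadjusted p under 0.05). The count was 1 without Ythdf2 IP replicate 2, 7 without Ythdf1 IP replicate 1, 10 without Ythdf2 IP replicate 1, and 0 with totals as the scaling. mt-Co3, a subunit of cytochrome c oxidase, was at 2580 and 5442 normalised CPM against 780 and 355 (log2 fold change 2.82, SE 0.61, edgeR adjusted p 0.0341; 0.237 without Ythdf2 IP replicate 2). mt-Atp8, a subunit of ATP synthase, was at 624 and 925 against 133 and 42.8 (log2 fold change 3.14, SE 0.53, edgeR adjusted p 0.00957). The others called were mt-Atp6 (log2 fold change 3.07; adjusted p 0.0568 without Ythdf2 IP replicate 2) and mt-Co2 (2.75; 0.254 without it). The reading frames of mt-Atp8 and mt-Atp6 overlap, and summed with mt-Co3 they gave 2.90 (adjusted p 0.031). The Ythdf2 IPs differed from each other here, with 15495 and 4401 normalised CPM summed over the 13 genes against 33664 and 42757 in the Ythdf1 IPs. Mitochondrial rRNA moved the same way, with 2.11% and 2.34% of all counts in the Ythdf1 IPs against 1.24% and 0.274% in the Ythdf2 IPs. Since these RNAs lie inside mitochondria and the YTH proteins in the cytoplasm, the values are given as recovery only.

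Of the 78 nuclear oxidative phosphorylation genes kept, 5 were called higher in the Ythdf1 IP and 0 higher in the Ythdf2 IP, with a median of 1.21 and 76 above 0 (59 and 1 at an unadjusted p under 0.05). The count was 0 without Ythdf1 IP replicate 2, 3 without Ythdf2 IP replicate 2, 15 without Ythdf2 IP replicate 1, 47 without Ythdf1 IP replicate 1, and 0 with totals as the scaling. Ndufv2 of complex I was at 39.0 and 76.3 against 13.7 and 10.2 normalised CPM (log2 fold change 2.26, SE 0.41, edgeR adjusted p 0.0123; 0.0603 without Ythdf1 IP replicate 2). Uqcr10 of complex III was at 22.0 and 55.4 against 8.70 and 4.95 (log2 fold change 2.502, SE 0.49, edgeR adjusted p 0.0232; 0.126 without Ythdf1 IP replicate 2). In the retina the medians were -1.95 for the mitochondrially encoded mRNAs, 11 of which were called higher in the Ythdf2 IP, and -0.20 for the nuclear genes. The tissue difference was called lower in the retina for 12 of the 13 and for 22 of the 76 tested.

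Replication-dependent histone mRNAs, which end in a stem-loop in place of a poly(A) tail and are made in S phase, gave the most calls of any list. Of 65 kept genes 20 were called higher in the Ythdf1 IP and 0 higher in the Ythdf2 IP, with a median of 1.67 and 64 above 0 (47 and 0 at an unadjusted p under 0.05). The count was 7 without Ythdf1 IP replicate 2, 10 without Ythdf2 IP replicate 1, 39 without Ythdf1 IP replicate 1, and 0 with totals as the scaling. Hist1h3g was at 168 and 274 normalised CPM against 40.4 and 48.5 (log2 fold change 2.31, SE 0.37, edgeR adjusted p 0.0047). Hist3h2ba was at 196 and 303 against 51.7 and 51.7 (log2 fold change 2.27, SE 0.37, edgeR adjusted p 0.00507). The histone genes summed to 31469 and 60901 normalised CPM against 9233 and 21622, so the groups did not overlap, though the replicates of each antibody differed from each other by more than the nearest libraries of opposite antibodies did. Histone genes are near-identical copies of each other, so single members are uncertain. In the retina the median was 0.60, 29 of 61 genes were called higher in the Ythdf1 IP and 0 higher in the Ythdf2 IP. The tissue difference was called for 9 genes, all lower in the retina.

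Other housekeeping groups had medians above 0 and few calls. The medians were 0.64 for 35 proteasome genes and 0.58 for 45 translation factors, with 0 called in either direction by edgeR (15 and 13 at an unadjusted p under 0.05, and 1 and 0 by DESeq2's Wald test), and 0.60 for 44 spliceosome genes, of which Snrpg and Snrpd2 were called higher in the Ythdf1 IP. Snrpg, a core protein of small nuclear ribonucleoproteins, was at 44.4 and 72.0 against 19.2 and 11.3 normalised CPM (edgeR adjusted p 0.0286; 0.111 without Ythdf1 IP replicate 2 and 0.142 without Ythdf2 IP replicate 2). Snrpd2, another core protein, had an edgeR adjusted p of 0.0301, which was 0.249 without Ythdf1 IP replicate 2 and 0.0525 without Ythdf2 IP replicate 1. Of 39 neuronal cytoskeleton genes Tmsb10, an actin-binding thymosin, was called (505 and 1044 against 208 and 139, edgeR adjusted p 0.0325; 0.11 without Ythdf1 IP replicate 2 and 0.223 without Ythdf2 IP replicate 2), with a list median of 0.57. Without Ythdf1 IP replicate 1 the calls were 9 proteasome, 2 translation factor, 12 spliceosome and 6 cytoskeleton genes, all higher in the Ythdf1 IP, and without Ythdf2 IP replicate 1 they were 2, 0, 1 and 3. They were 0 in each of these lists without Ythdf1 IP replicate 2, and 1 spliceosome gene without Ythdf2 IP replicate 2. Among 64 kinesin and dynein genes the 4 called were Dynlt1a, Dynlt1b, Dynlt1c and Dynlt1f, near-identical copies of 1 dynein light chain, and the list median was 0.03. Each of the 4 missed the threshold without Ythdf1 IP replicate 2 and without Ythdf2 IP replicate 2, and without Ythdf1 IP replicate 1 the list had 9 genes called higher in the Ythdf1 IP and 1 higher in the Ythdf2 IP.

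Of 10 erythroid genes 1 was called higher in the Ythdf1 IP, and of 10 meningeal genes 2, against 0.795% of all genes kept. Over all genes kept, 21.2% were higher in both Ythdf1 IP libraries than in both Ythdf2 IP libraries. An unadjusted p under 0.05 toward Ythdf1 was found for 7.17%. All 10 erythroid genes kept were higher in both Ythdf1 IP libraries than in both Ythdf2 IP libraries, with a median of 1.59, and 1 was called (9 at an unadjusted p under 0.05, 6 by DESeq2's Wald test, 8 without Ythdf1 IP replicate 1, 3 without Ythdf2 IP replicate 1 and 0 without Ythdf1 IP replicate 2). Of the 10 meningeal genes 7 were higher in both Ythdf1 IP libraries than in both Ythdf2 IP libraries, with a median of 0.83 and 2 calls, Igf2 and Dcn. Dcn, the matrix proteoglycan decorin, was at 19.2 and 22.3 against 3.31 and 3.22 (log2 fold change 2.66, SE 0.47, edgeR adjusted p 0.0092). Other genes of connective tissue were called too, chosen here after their values were seen. Biglycan (Bgn) was at 75.2 and 84.2 against 17.8 and 20.96 normalised CPM (edgeR adjusted p 0.00778), and Tgfbi, a matrix protein, at 38.2 and 54.3 against 5.76 and 14.0 (edgeR adjusted p 0.0261; 0.0603 without Ythdf1 IP replicate 2 and 0.0685 without Ythdf2 IP replicate 1). By contrast Col4a1, a basement membrane collagen, and Foxc1, a meningeal transcription factor looked up after these values, had log2 fold changes of -0.05 and 0.08. The median transcript length was 666 bases for the erythroid list and 5704 for the meningeal list, against 2852 for all genes kept. How far transcript length, or cells of blood or meninges in the dissections, account for these values was not tested.

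Few genes were higher in the Ythdf2 IP, and fewer still hold as separate genes. Of the 14 called, 7 share a locus with another counted gene. Summing the reads of overlapping same-strand genes, an analysis added after seeing the data, left 2 of these 7 called in that direction. Shared loci also touched the calls toward Ythdf1, where 16 genes share a locus and 10 of these stayed called after summing. Lrch4 and Gm20605 on chromosome 5 show why: Lrch4, which encodes a leucine-rich repeat protein, had 176 and 90 counts in the Ythdf1 IPs against 21 and 23 in the Ythdf2 IPs, while the overlapping model Gm20605 had 20 and 1 against 242 and 474. Each was called, in opposite directions (log2 fold change 3.95 and -3.82). Summed with Sap25 in the same locus they had 200 and 96 against 280 and 510 counts, a log2 fold change of 0.01 (edgeR adjusted p 0.996). Rnu3b4, a U3 small nucleolar RNA, is likewise held by 2 records that differ by 1 base (chromosome 11, 87462286 to 87462500 and to 87462501). The called record had 0 and 0 against 102 and 144 counts, so it met the count filter only through the Ythdf2 IPs. With a floor of 3 counts per library it was at least 13.8-fold lower in the Ythdf1 IP. The other record had 266 and 601 against 140 and 1. Their sum was not called (log2 fold change 2.75, adjusted p 0.473).

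The other 7 genes called higher in the Ythdf2 IP were Zfp407, Lemd1, Gm17275, Snora57, Duxbl2, Duxbl3 and the gene ENSMUSG00000113525, which has no position in the annotation used. Of these, 4 had 0 counts in both Ythdf1 IPs, so they met the count filter only through the Ythdf2 IPs. The filter fixed their direction in advance, and their folds and p-values are no separate support for it. Of all genes kept, 82 were at 0 in both Ythdf1 IPs and 0 were at 0 in both Ythdf2 IPs. The filter is on raw counts, and depth differed. Kept genes held 7056688 and 3265844 counts in the Ythdf1 IPs against 7270385 and 13804886 in the Ythdf2 IPs. The part of depth in the 82 was not tested. ENSMUSG00000113525 had 162 and 404 counts in the Ythdf2 IPs (at least 28.8-fold lower in the Ythdf1 IP, edgeR adjusted p 0.000176), and Snora57, a small nucleolar RNA, had 77 and 94 (at least 9.80-fold lower, edgeR adjusted p 0.00666). Duxbl3 had 61 and 101 and the related Duxbl2 49 and 72. These were named after their values were seen.

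Zfp407, which encodes a large zinc finger protein (chromosome 18, 84128027 to 84589725), was the called gene with the largest difference toward Ythdf2 among those with counts in all 4 libraries and no shared locus. It stood at 33.6 and 24.5 normalised CPM in the Ythdf1 IPs against 135 and 220 in the Ythdf2 IPs (log2 fold change -2.60, SE 0.38, edgeR adjusted p 0.00159). In the retina it was the other way round, 71.0 and 77.6 against 21.8 and 14.1 (log2 fold change 2.04, adjusted p 4.25e-05), with a tissue difference of 4.72 (SE 0.46, edgeR adjusted p 0.000477). Spaca6, a gene of sperm and egg fusion that overlaps the microRNA gene Mir125a, was at 53.9 and 53.6 against 162 and 260 (log2 fold change -1.97, SE 0.36, edgeR adjusted p 0.0129; 0.0531 without Ythdf2 IP replicate 2). Its retina values had the same order, 5.92 and 13.8 against 56.9 and 74.0. Lemd1, which encodes a LEM domain protein, was at 7.45 and 12.2 against 30.1 and 57.1 (log2 fold change -2.18, SE 0.44, edgeR adjusted p 0.0247; 0.139 without Ythdf2 IP replicate 2). Scarna13, a small Cajal body RNA, had 4 and 0 counts against 137 and 420 (edgeR adjusted p 0.000424). It too met the count filter only through the Ythdf2 IPs.

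The next genes toward Ythdf2 did not pass the test. They were Nemp2 (log2 fold change -1.91), Gpr161 (-1.64), Nipa2 (-1.55), Dedd2 (-1.55), Dleu2 (-1.45), Mafg (-1.40) and Twnk (-1.38), with edgeR adjusted p from 0.0636 to 0.118. Gpr161, a ciliary receptor that restrains Hedgehog signalling, was at 39.7 and 99.7 normalised CPM against 198 and 232.

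Zinc finger genes leaned toward the Ythdf2 IP in the cortex. Of 363 Zfp genes 88 had a log2 fold change above 0, the median was -0.33, and Zfp407 alone was called, higher in the Ythdf2 IP (32 were without Ythdf1 IP replicate 1, and 6 without Ythdf2 IP replicate 1). The 38 BTB zinc finger genes had a median of -0.56 with 0 called by edgeR or DESeq2 (8 toward Ythdf2 and 0 toward Ythdf1 at an unadjusted p under 0.05). Without Ythdf1 IP replicate 1, 4 BTB genes were called higher in the Ythdf2 IP, and 1 without Ythdf1 IP replicate 2. Relative to all genes the Zfp median was between -0.64 and -0.10 with any single library left out, a measure that cannot show the effect of scaling. In the retina both medians had the opposite sign, 0.34 and 0.48, and 38 of 306 Zfp genes were called higher in the retina by the tissue difference against 5 called lower. Zbtb9 and Hic2, a BTB gene and a related repressor, were not called in the cortex (log2 fold change -0.28 and -0.47).

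**Figure D3:**
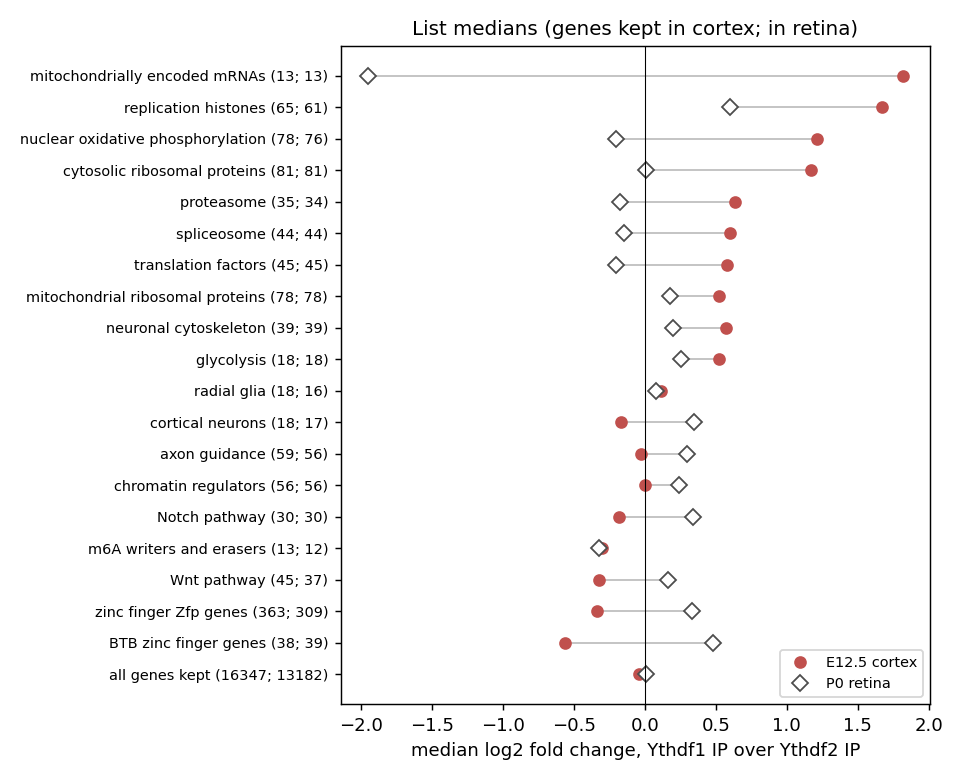
Median log2 fold change of the Ythdf1 IP over the Ythdf2 IP for 19 gene lists and all genes kept, in the E12.5 cortex (red circles) and the P0 retina (open diamonds), with the number of genes kept in each tissue in brackets. Mitochondrial mRNAs go from 1.82 to -1.95, and the zinc finger lists from below 0 to above 0.

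Genes of the m6A machinery did not pass the test. Ythdf1 mRNA was at 97.1 and 78.1 normalised CPM in the Ythdf1 IPs against 87.6 and 115 in the Ythdf2 IPs (log2 fold change -0.21, SE 0.33, edgeR adjusted p 0.87). Ythdf2 mRNA was at 115 and 92.5 against 82.2 and 179 (log2 fold change -0.33, SE 0.38, edgeR adjusted p 0.814), and Ythdf3 at 185 and 105 against 172 and 249 (log2 fold change -0.53, edgeR adjusted p 0.658). In each of these 3 the libraries of the antibodies overlapped. These mRNA levels say nothing of how much protein each antibody pulled down. Of the 5 YTH genes, 13 writer and eraser genes and 36 mRNA decay genes, 0 passed the edgeR test in either direction. Over all genes kept 0.881% passed, so 0 calls in lists this small do not set them apart. At an unadjusted p under 0.05 there were 0, 2 and 3 genes. The writer and eraser genes were 0 toward Ythdf1 and 2 toward Ythdf2, and the decay genes 2 and 1, beside 7.17% and 3.87% of all genes kept. DESeq2's Wald test called 0, 0 and 1 gene of the lists. Without Ythdf1 IP replicate 1, edgeR called 1 writer or eraser gene higher in the Ythdf2 IP.

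Lists of developmental pathways held few calls. Over all genes kept edgeR called 0.881%, so few calls are what lists of this size would hold. Of 59 axon guidance, 45 Wnt, 30 Notch and 56 chromatin regulator genes, 0 were called by edgeR or by DESeq2's Wald test. Their medians were -0.03, -0.32, -0.18 and 0.00. At an unadjusted p under 0.05 there were 2, 2, 2 and 3 genes, beside 7.17% toward Ythdf1 and 3.87% toward Ythdf2 over all genes kept. Without Ythdf1 IP replicate 1, 1 axon guidance and 4 Wnt genes were called higher in the Ythdf2 IP. The insulin and mTOR list had 1 call, Igf2, among 33 genes. Cxcr4, a chemokine receptor that guides migrating neurons, was called outside these lists and is named after its values were seen (66.6 and 55.4 against 15.4 and 24.8 normalised CPM, edgeR adjusted p 0.0495; 0.235 without Ythdf2 IP replicate 1).

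Transcript length went with the antibody difference in the cortex. Over 13198 kept protein-coding genes, with the length of 1 GENCODE transcript per gene, the log2 fold change and length had a Spearman correlation of -0.36. It was -0.33 without 5 lists of mostly short transcripts (cytosolic and mitochondrial ribosomal proteins, both oxidative phosphorylation lists and histones), -0.28 with coding length, and -0.16 without Ythdf1 IP replicate 2. In 5 equal groups from short to long transcripts the medians fell in order, 0.44, 0.07, -0.06, -0.17 and -0.25, and the genes called higher in the Ythdf1 IP numbered 77, 11, 6, 2 and 0. The 96 called protein-coding genes had a median length of 921.5 bases against 3122.5 for all kept, and 54 of them were under 1000 bases against 724 of all 13198. The correlation was 0.10 with GC content and 0.01 with mean level. Genes are not independent replicates and share the same 4 libraries, so no p is given.

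**Figure D4:**
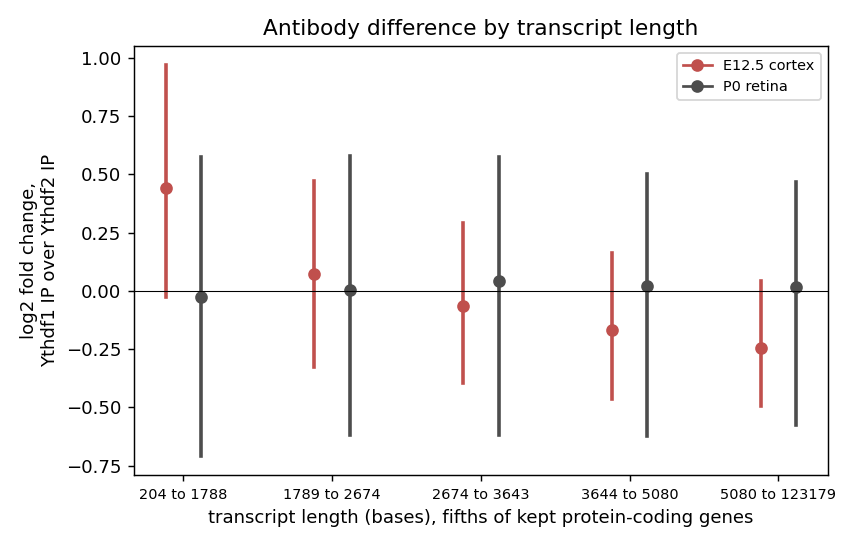
Median (points) and range from the 25th to the 75th percentile (bars) of the log2 fold change of the Ythdf1 IP over the Ythdf2 IP in 5 equal groups of transcript length in bases, for the cortex (red) and the retina (grey). The cortex medians fall from 0.44 to -0.25 and the retina medians stay between -0.03 and 0.04.

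In the retina length had no such relation (Spearman -0.01 over 11922 genes), whereas GC content did (0.45, against 0.10 in the cortex). This difference between tissues is a description without a test.

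The antibody difference in the cortex was largely not that of the retina. Over the 12675 genes kept in both tissues the log2 fold changes, from separate libraries, had a Pearson correlation of -0.05 (Spearman -0.04). The retina comparison called 2293 genes higher in the Ythdf1 IP (17.4%) and 2626 higher in the Ythdf2 IP (19.9%), with closer replicates. Of the 130 genes called higher with Ythdf1 in the cortex 124 were kept in the retina, 79 had the same sign there, 38 were called in the same direction and 16 in the opposite one. Those 38 are 29.2% of the cortex calls and 1.66% of the retina calls. The tissue difference itself was called for 589 of the 12675 genes as higher in the retina (4.65%) and 1151 as lower (9.08%), 1740 in all (13.7%). These counts ran from 66 and 422 without retina Ythdf1 IP replicate 1 to 1309 and 1512 without cortex Ythdf1 IP replicate 1, and 6 other libraries moved them by over 1.5 times. Among the 130 it was called for 70, all lower in the retina, a direction that the choice of genes favours. Of the 14 genes higher with Ythdf2, 10 were kept in the retina, 3 were called in the same direction and 2 in the opposite one.

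**Figure D5:**
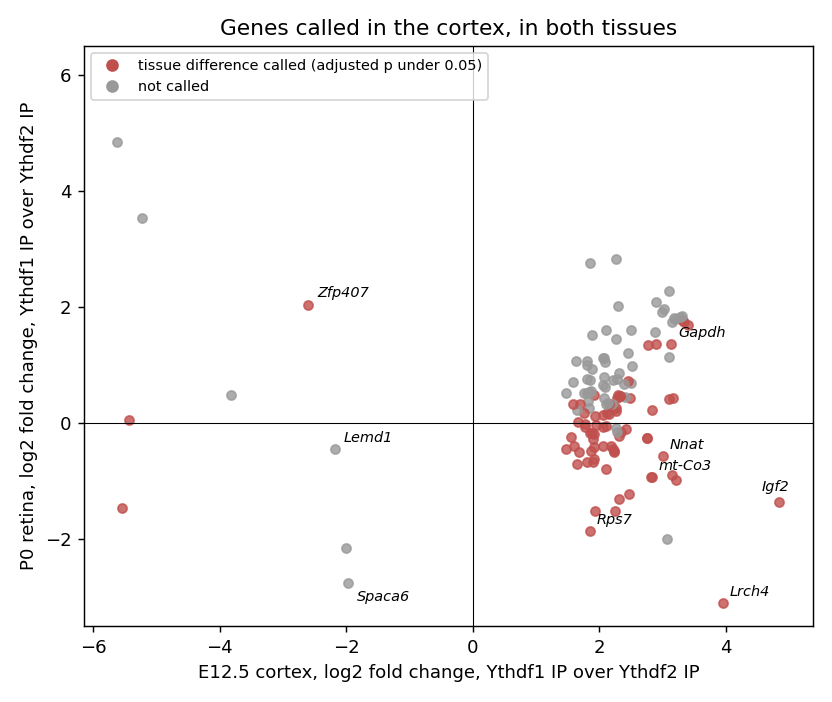
Log2 fold change of the Ythdf1 IP over the Ythdf2 IP in the cortex (horizontal) and the retina (vertical) for 133 genes called in the cortex, kept in the retina and counted in both groups. Red points had a called tissue difference. Igf2 and Zfp407 change sign, and Gapdh and Spaca6 keep theirs.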

How the data were processed

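Per the labels, RNA from E12.5 cortex was immunoprecipitated with Ythdf1 or Ythdf2 antibodies using a commercial RIP kit and sequenced as stranded libraries. STAR 2.5, HTSeq and GRCm38 are named in the submitters' processing notes. The HTSeq version, strand setting, annotation release and treatment of reads with several placements were not found in these sources. The authors deposited raw read counts per gene and, in a second table, FPKM values, which served only an alternative test.

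Gene IDs were matched to GENCODE M21 (52403 of 52550), and 363 rRNA-locus genes were left out. Kept genes were scaled by TMM and tested with edgeR 4.0.16 (robust quasi-likelihood, two-sided, R 4.3.3, limma 3.58.1), 2 libraries per group and 2 residual degrees of freedom, with Benjamini-Hochberg adjustment over all kept genes. SE is |log2 fold change| over the square root of the F statistic. The interaction was fitted to the 8 IPs. On simulated counts for this comparison (15487 genes), 8% of 2-fold, 88% of 4-fold and 100% of 8-fold changes were recovered, each from 50 changed genes, and 13 of 15287 unchanged genes were called. The changed genes were drawn from the better-counted genes, and the simulated noise was independent between genes, with no shift shared by a whole library. Recovery in the real libraries may therefore be lower, and false calls more frequent. Alternatives used DESeq2 1.42.0 and limma-trend on log2(FPKM + 1). Copies were matched with minimap2. Intervals and floors cover counting error only.

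The comparison, members and 42 lists were chosen with earlier results of these data known. Named genes had at least 5 mean CPM, at least a 2-fold change, no overlap and an informative symbol: the 12 largest called per direction, places left over going to the smallest p, plus, per list, the 2 with the smallest p in each direction, and Ythdf1, Ythdf2, Ythdf3, Zbtb9 and Hic2. Of the names this gave, the text uses part, chosen with their values known; some are not reported here.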

Additional observations from a re-analysis of the deposited data

Results flagged for a closer look

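For 13 of the genes named by rule, the antibody difference itself differed between P0 retina and E12.5 cortex by the edgeR interaction test over the 8 IPs. Tissue and age cannot be told apart in these values, which give the retina log2 difference minus the cortex one.

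The difference was lower in the retina for 8 genes. These were Igf2 (-6.12, adjusted p 0.00017), Lrch4 (-6.98, adjusted p 0.0183), mt-Atp8 (-3.96, adjusted p 0.00412), mt-Co3 (-3.67, adjusted p 0.00328), Nnat (-3.48, adjusted p 0.00256), mt-Co2 (-2.93, adjusted p 0.00677), Snord22 (-2.51, adjusted p 0.0177) and Gapdh (-1.69, adjusted p 0.0191). Lrch4 shares its reads with Gm20605, and Snord22 lies within its host Snhg1. Neither locus was called in the cortex when its overlapping genes were summed (edgeR adjusted p 0.996 for Lrch4 and 0.0963 for Snord22).

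It was higher in the retina for 5 genes. These were Zfp407 (4.72, adjusted p 0.000477), Dedd2 (2.39, adjusted p 0.00411), Gpr161 (2.00, adjusted p 0.0189), Twnk (1.83, adjusted p 0.0222) and 1 of the 2 records of Rnu3b4 (17.6, adjusted p 0.000854). The last is a fitted value against 0 counts and gives no size. The genes with the largest cortex differences were chosen for them, so part of their tissue difference follows from that choice.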

How the results depend on the processing

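The counts of calls depended on the test and the scaling, given here as genes toward Ythdf1 and toward Ythdf2, against 130 and 14. The calls were 304 and 22 by DESeq2's Wald test, among them 128 of the 130 and 11 of the 14. They were 12 and 193 with limma-trend after log2(FPKM + 1) (all-gene median -0.53), among them 2 of the 130 and all 14. Among edgeR fits, totals over the kept genes gave 16 and 14, no filter on low counts 273 and 59, a filter of 50 counts 198 and 15, rRNA-locus genes kept in the fit 91 and 13, and the 8 IPs in 1 fit 217 and 27. With all 12 libraries edgeR called 0 and 0 (686 genes at an unadjusted p under 0.05); that fit includes cortex input replicate 1, in which mitochondrial rRNA took 71.0% of counts and protein-coding genes 4.65%, against 12.7% and 41.1% in replicate 2. Overlapping genes summed gave 148 and 9, and adjustment over protein-coding genes alone 86 and 9, both chosen after seeing the data, as were the alternatives to the length correlation. Leaving out 1 library gave 66 to 669 and 20 to 354. With DESeq2 size factors there were 122 and 14.

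With the replicate block 86 and 13 were called, of which 76 and 13 were among the calls without it. The replicate numbers do not pair the samples by label, and same-numbered deviations correlated at -0.04. In the tissue difference, against 589 higher and 1151 lower in the retina, the block gave 118 and 588, DESeq2's Wald test 887 higher, totals over the kept genes 1667 higher and 802 lower, and leaving out 1 library 66 to 1309 higher and 422 to 1512 lower. The length correlation ran from -0.41 to -0.16 with 1 library left out.

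All called genes that an alternative with the same gene models tested kept their sign (127 and 13 with the filter of 50 counts, 96 and 9 over protein-coding genes, 130 and 14 in the others). No called gene had overlapping libraries of the antibodies, so a sign could hardly change in these fits, and this is no support. Rnu3b4 reversed when its 2 records were summed (2.75). With 1 library left out, uncalled differences ran from -0.39 to 0.0018 for Ythdf1, -0.78 to 0.34 for Ythdf2, -0.59 to 0.11 for Zbtb9 and -0.84 to 0.036 for Hic2, above 0 without Ythdf2 IP replicate 2. The causes were not tested. With 2 libraries per group, changes of 2-fold were mostly below what the test recovered in simulated data.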
